A study of Mus musculus with 126 samples.

Results

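Duox2, Duoxa2, Nox1, Nos2, Saa1, Saa3 and Lcn2, 7 genes of oxidative defence and the acute-phase response in gut epithelium, were followed by symbol through all 7 expression tables of a mouse colon study. They are 7 of 24883 rows per table, each found once, with a value in all 126 libraries. Of the 7, 6 were tested among 11380 rows that reached a mean of 1 rescaled FPKM in at least 1 condition, and Lcn2 stayed below that level. FPKM gives fragments relative to transcript length and to the library's mapped total; here it was rescaled by 1 factor per library so that libraries and tables can be set side by side.

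DUOX2 is an oxidase of the apical membrane that releases hydrogen peroxide into the gut lumen, and DUOXA2 is the maturation factor it needs to leave the endoplasmic reticulum. NOX1 is a superoxide-producing NADPH oxidase of colon epithelium, and NOS2 is the inducible nitric oxide synthase, which makes nitric oxide from arginine. SAA1 and SAA3 are serum amyloid A proteins, small lipid- and retinol-binding proteins made in inflammation, and lipocalin 2 (Lcn2) binds bacterial siderophores and so withholds iron. In gut epithelium these genes are known to respond to microbes and to cytokines such as IL-22 and interferon gamma, through STAT, NF-kB and C/EBP factors.

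The genotype groups were gut-specific Bmal1 knock out mice, which lack the core clock factor BMAL1, MR knock out mice, which lack the mineralocorticoid receptor, and wild type mice. Both knock outs were 8 to 12 weeks old on normal chow ad libitum. The sources used here name no driver of the deletions, do not say clearly in which cells MR was deleted and give no age for the wild type mice. The feeding groups were high salt day fed, high salt night fed, low salt day fed and low salt night fed, all 8-week-old male C57BL/6 mice on time-restricted feeding under 12 h of light and 12 h of dark. Each of the 7 conditions had 18 poly(A) RNA libraries of colon, 3 every 4 h through the day, starting at ZT0 (zeitgeber time, hours after lights on).

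No source used here gives the read depth, and summed FPKM lay between 158029 and 660895 in single libraries. The scale factor was under 0.6 in 14 libraries, 9 of Bmal1 knock out and 5 of high salt night fed. Nr3c2, the MR gene, lay between 1.66 and 5.34 rescaled FPKM in MR knock out and between 7.07 and 23.3 in wild type. In Bmal1 knock out it lay between 3.228 and 13.96, with a median of 4.812, and overlapped MR knock out. Medians of Nr3c2 in the 4 feeding groups ran from 6.815 to 8.905. Arntl, the Bmal1 gene, lay between 2.88 and 6.29 in Bmal1 knock out and between 2.26 and 19.2 in wild type. Summed epithelial markers (7 genes) lay between 6665 and 15330 in all libraries, and summed smooth muscle markers (5 genes) between 0.523 and 4.34. Of 9 neutrophil markers in the tables, 7 had a median of 0 over all libraries, among them S100a8, S100a9, Mpo and Elane. Their sum was highest in MR knock out ZT0 replicate 3 (48.8) and high salt day fed ZT4 replicate 1 (20.8). Summed distal colon markers (4 Hox genes) had medians of 83.5 for Bmal1 knock out, 99.4 for MR knock out and 160.4 for wild type, and of 118.6, 135.2, 175.1 and 173.4 in high salt day fed, high salt night fed, low salt day fed and low salt night fed colon. Summed macrophage markers (9 genes) had medians of 3.49 for Bmal1 knock out, 4.50 for MR knock out and 3.29 for wild type, and of 6.04, 4.59, 4.26 and 5.02 in the same 4 feeding groups; their highest sum was 16.1, in MR knock out ZT0 replicate 3. Of 3 tested macrophage markers, Lyz2 was higher in MR knock out than in wild type (0.52 ± 0.22), Cd68 was higher in Bmal1 knock out than in wild type (0.55 ± 0.15), and in high salt night fed against low salt night fed colon Cd68 was higher (0.61 ± 0.17) and C1qa lower (-0.38 ± 0.13). None of the 3 passed in high salt day fed colon against high salt night fed or low salt day fed colon by limma, where 27.6% and 14.8% of all tested rows did. The part of these markers in the results was not tested.

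A length score was also taken per library, the slope over genes of a gene's log2 deviation from its mean on the log2 length of its transcript, so that a low score means lower values for long transcripts. It averaged -0.10 ± 0.14 for Bmal1 knock out, 0.007 ± 0.127 for MR knock out and 0.17 ± 0.11 for wild type (SD, n = 18 each), and between -0.07 and 0.01 in the 4 feeding groups. It thus differs between the genotype groups, and its part in their differences was tried by adding it as a covariate.

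Duox2 and Duoxa2 lie head to head on chromosome 2 (build mm10, GENCODE vM21), Duox2 at chr2:122279247-122298449 on the minus strand and Duoxa2 at chr2:122298900-122302885 on the plus strand. Their RefSeq starts are 672 bases apart, and the windows from 250 bases before to 50 after each start (RefSeq, GRCm38.p6) are shown because the pair is read outwards from 1 stretch. Saa1 and Saa3 lie on the minus strand of chromosome 7 (chr7:46740497-46742980 and chr7:46711998-46715700), and are shown because their levels differed in direction in Bmal1 knock out. The windows are chr2:122298178-122298477 for Duox2, chr2:122298650-122298949 for Duoxa2, chr7:46742931-46743230 for Saa1 and chr7:46715627-46715926 for Saa3, each written 5′ to 3′ on its gene's strand with motif matches in capitals.
Duox2: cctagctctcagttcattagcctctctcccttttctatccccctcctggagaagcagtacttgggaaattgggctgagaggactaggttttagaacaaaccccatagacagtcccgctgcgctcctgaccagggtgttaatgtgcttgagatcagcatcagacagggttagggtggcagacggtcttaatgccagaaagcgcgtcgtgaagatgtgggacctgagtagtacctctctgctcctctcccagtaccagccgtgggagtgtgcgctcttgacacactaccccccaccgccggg
Duoxa2: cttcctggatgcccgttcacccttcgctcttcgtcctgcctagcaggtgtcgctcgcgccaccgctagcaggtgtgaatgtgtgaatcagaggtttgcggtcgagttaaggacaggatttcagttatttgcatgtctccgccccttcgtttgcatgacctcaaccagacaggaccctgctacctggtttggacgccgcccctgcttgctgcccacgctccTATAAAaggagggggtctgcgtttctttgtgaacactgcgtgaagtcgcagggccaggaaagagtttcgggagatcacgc
Saa1: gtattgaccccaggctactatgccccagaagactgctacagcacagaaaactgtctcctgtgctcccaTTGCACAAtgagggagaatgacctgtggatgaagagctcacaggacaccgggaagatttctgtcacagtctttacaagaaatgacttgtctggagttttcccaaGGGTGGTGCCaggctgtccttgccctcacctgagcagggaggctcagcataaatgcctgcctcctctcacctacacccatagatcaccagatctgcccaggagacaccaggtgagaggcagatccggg
Saa3: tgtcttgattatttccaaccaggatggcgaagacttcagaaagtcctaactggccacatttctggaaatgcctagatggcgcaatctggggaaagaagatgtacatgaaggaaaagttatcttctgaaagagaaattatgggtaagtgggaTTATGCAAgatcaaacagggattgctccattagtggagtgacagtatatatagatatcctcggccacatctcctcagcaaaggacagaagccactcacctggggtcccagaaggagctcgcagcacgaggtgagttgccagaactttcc

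RefSeq windows were matched for 6 of the 7 genes, and 5 motifs were searched on both strands. The TATA box TATAAA stood 30 bases before the Duoxa2 start, and 13.6% of all 32851 windows hold it. The C/EBP-type motif TTGCNNAA was found at Saa1 (182 bases before the start), Lcn2 (216 bases before) and, on the other strand, Saa3 (99 bases before), and in 10.8% of all windows. The NF-kB-type motif (GGG, any 5 bases, CC) was found at Saa1, Lcn2 and Nox1, where its matches on the 2 strands overlap, and in 50.8% of all windows. The STAT-type motif TTCNNNGAA (8.3% of all windows) and the E-box CACGTG (7.15%) were in none of the 6 windows, and the Duox2 window held none of the 5 motifs.

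The Saa1 window was identical to that of its neighbour Saa2 at 95.3% of 301 aligned positions, and to that of Saa3 at 50.1% of 339. Reads of Saa1 and its near copy Saa2 may be split by the counting, so values of Saa1 are uncertain to that extent; Saa2 had condition medians of 0.811 to 4.71 rescaled FPKM, against 522 to 2131 for Saa1. Duoxa2 shares 695 bases with Duoxa1 on the opposite strand. Nox1, on the minus strand of chromosome X (chrX:134086421-134221956), shares 399 bases with Cstf2 and 20528 with Arl13a on the opposite strand and 13034 with Xkrx on its own. These overlaps are of whole gene spans, introns included, and the overlap of exons was not taken. The RefSeq Nox1 window, chrX:134111805-134112104, lies inside the GENCODE span of Nox1. No source used here says whether the counting used strand, so how many reads of these genes are shared is not known. Nos2 lies at chr11:78920787-78960254 on the plus strand and Lcn2 at chr2:32384633-32388252 on the minus strand.

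Per length, Saa1 had the highest level of the 7 genes, with condition medians from 522 rescaled FPKM in Bmal1 knock out to 2131 in low salt night fed colon. Duox2, Duoxa2, Nox1 and Saa3 had condition medians between 3.14 and 32.0. Nos2 was low, with medians from 0.225 in wild type to 1.57 in high salt day fed colon, and Lcn2 lower still, with medians of 0 to 0.197. Saa1 medians were 1703 to 2131 in the 4 feeding groups and 522 to 868 in the 3 genotype groups, but mice, diet and table differ together between these sets and cannot be told apart.

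**Figure D1:**
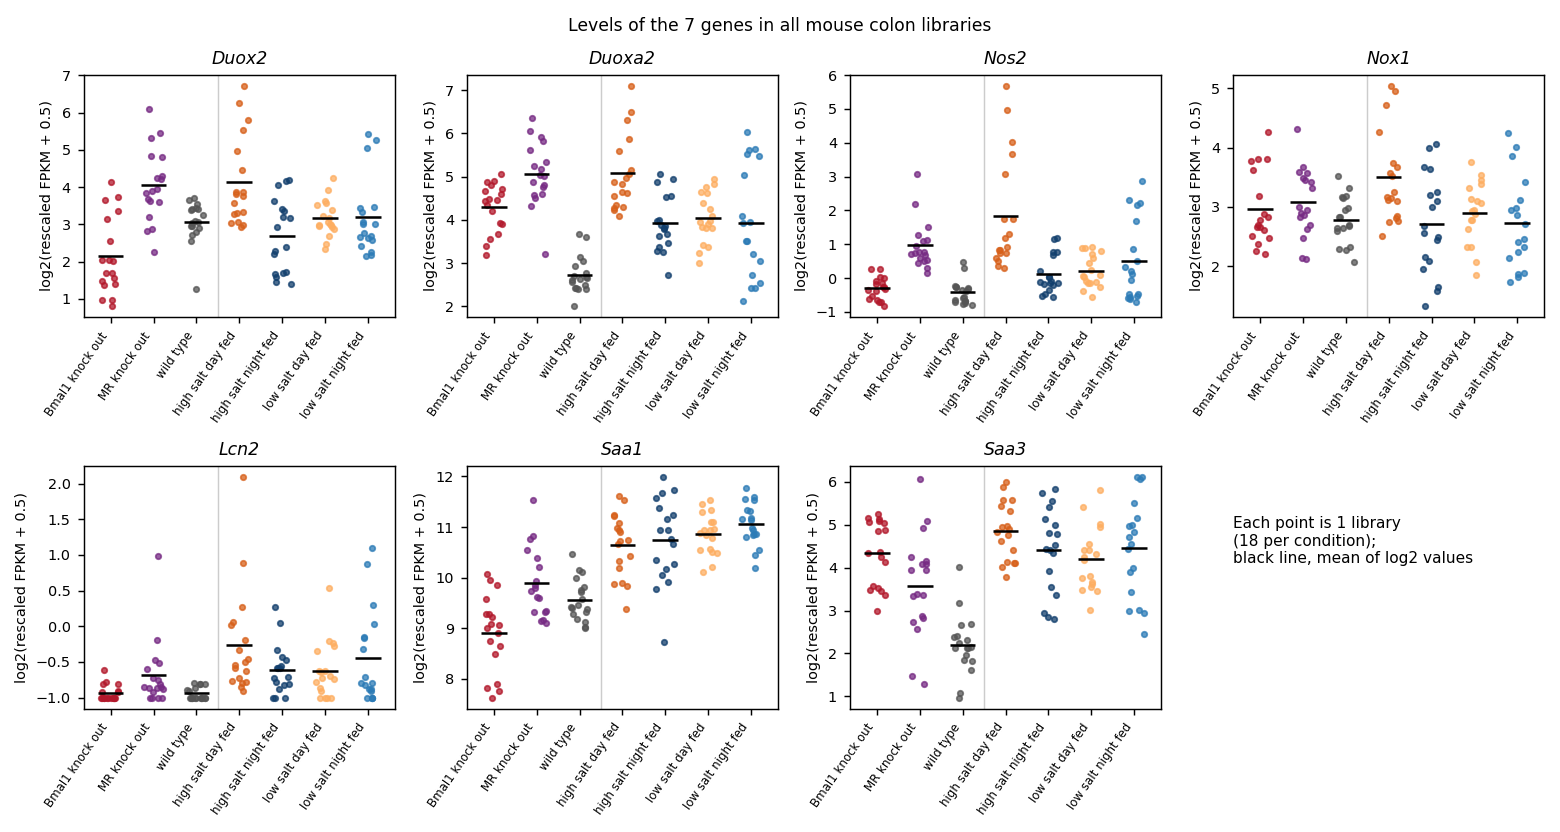
Levels of the 7 genes as log2(rescaled FPKM + 0.5) by condition; points are libraries (18 per condition) and lines the means of the log2 values. Duoxa2 and Saa3 stood higher in both knock outs than in wild type, and the highest Duox2, Duoxa2, Nox1, Nos2 and Lcn2 values of the 126 libraries came from high salt day fed colon.

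In MR knock out colon, 4 of the 6 tested genes rose over wild type: Duoxa2, Duox2, Nos2 and Saa3. None fell, and Nox1 and Saa1 did not pass the test. Of all tested rows 66.0% passed in this comparison, 24.7% upwards and 41.3% downwards. The median log2 difference was 1.18 over the 6 genes and -0.08 over all tested rows.

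Duoxa2 ranged from 8.78 through a median of 32.0 to 81.4 rescaled FPKM in MR knock out, and from 3.49 through 5.71 to 12.2 in wild type. Just 1 knock out library, ZT20 replicate 3 with 8.78, lay inside the wild type range, and the other knock out libraries lay above it. The level difference, on the log2(rescaled FPKM + 0.5) scale over the 6 times, was 2.34 ± 0.20 (SE, adjusted p = 2.03e-12). Duox2 ranged from 4.26 through 14.6 to 67.5 in MR knock out and from 1.89 through 7.89 to 12.6 in wild type, with overlap, and rose by 0.99 ± 0.24 (adjusted p = 6.83e-04). Both genes of the oxidase pair were higher in MR knock out at 6 of 6 times.

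Nos2 ranged from 0.620 through 1.18 to 7.90 rescaled FPKM in MR knock out and from 0.0792 through 0.225 to 0.898 in wild type. The difference was 1.38 ± 0.16 (adjusted p = 5.97e-09). It was higher at 6 of 6 times, although its level stayed low per length. Saa3 ranged from 1.94 through 12.4 to 66.0 in MR knock out and from 1.46 through 3.92 to 15.7 in wild type, and rose by 1.37 ± 0.25 (adjusted p = 1.46e-05). Its groups overlap, and it too was higher at 6 of 6 times.

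Nox1 ranged from 3.85 through 7.38 to 19.3 rescaled FPKM in MR knock out and from 3.72 through 6.28 to 11.0 in wild type, a difference of 0.29 ± 0.15 (adjusted p = 0.0862). It passed with quantile normalization (0.42, adjusted p = 0.00867) and with a length score per library as a covariate (0.81, adjusted p = 1.21e-06). Saa1 ranged from 552 through 868 to 2956 in MR knock out and from 514 through 695 to 1410 in wild type, a difference of 0.33 ± 0.17 (adjusted p = 0.0846). MR knock out ZT0 replicate 3 held the highest Duox2 (67.5), Nos2 (7.90), Nox1 (19.3) and Lcn2 (1.48) of that genotype, and also 23.4 of S100a8 and 22.5 of S100a9, whose medians in MR knock out are 0. Without ZT0, an alternative added after seeing the data, the Duox2 difference was 1.05 (adjusted p = 0.00117), that of Duoxa2 2.40, that of Nos2 1.33 and that of Saa3 1.31. With the length score as a covariate all 4 calls stood, with 1.84 for Duox2, 1.93 for Duoxa2, 1.60 for Nos2 and 0.85 for Saa3. In these bulk samples, fewer cells of a type and less RNA per cell cannot be told apart.

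In Bmal1 knock out colon the same genes split. Saa3 and Duoxa2 rose over wild type, Duox2 and Saa1 fell, and Nos2 and Nox1 did not pass the test. The Duox2 direction turned with the length score as a covariate. These are 4 of 6 genes, where 80.3% of all tested rows passed, 31.1% upwards and 49.2% downwards. The median log2 difference was 0.15 over the 6 genes and -0.13 over all tested rows.

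Saa3 ranged from 7.41 through a median of 20.0 to 37.4 rescaled FPKM in Bmal1 knock out and from 1.46 through 3.92 to 15.7 in wild type. The difference was 2.13 ± 0.25 (adjusted p = 1.04e-09) and the ratio of mean levels 4.72. Saa1, by contrast, ranged from 197 through 522 to 1072 in Bmal1 knock out and from 514 through 695 to 1410 in wild type, and fell by 0.66 ± 0.17 (log2 difference -0.66, adjusted p = 6.91e-04). Saa3 was higher and Saa1 lower in the knock out at 6 of 6 times, each with overlapping ranges. Without replicate 2 the Saa1 difference was -0.51 (adjusted p = 0.0582). Its copy Saa2 fell by 0.68 ± 0.17 (log2 difference -0.68, adjusted p = 4.05e-04).

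Duoxa2 ranged from 8.64 through 21.3 to 33.1 rescaled FPKM in Bmal1 knock out and from 3.49 through 5.71 to 12.2 in wild type, and rose by 1.56 ± 0.20 (adjusted p = 6.67e-09) at 6 of 6 times. Duox2, its partner, ranged from 1.24 through 3.14 to 17.0 in Bmal1 knock out and from 1.89 through 7.89 to 12.6 in wild type. It fell by 0.92 ± 0.24 (log2 difference -0.92, adjusted p = 8.40e-04) and was lower at 5 of 6 times, all but ZT4. With the length score as a covariate the Duox2 difference was 0.49 (adjusted p = 0.103), and at ZT4 alone, a comparison added after seeing the data, it was 0.71 ± 0.60 (adjusted p = 0.557).

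The Duox2 values of Bmal1 knock out fell into 2 sets along the scale factor. The 5 libraries with a factor of 1.22 to 1.48 (ZT0 replicate 3, ZT4 replicates 1 to 3 and ZT8 replicate 2) held 8.27 to 17.0 rescaled FPKM, and the 13 with a factor of 0.297 to 0.778 held 1.24 to 5.36. Nox1 held 11.8 to 18.6 in the 5 and 4.13 to 8.59 in the 13, against 3.72 to 11.0 in wild type. Saa1 ran the other way, with 197 to 511 in the 5, all below the lowest wild type library, and 360 to 1072 in the 13. Duoxa2 (8.64 to 21.2 and 11.3 to 33.1) and Saa3 (9.82 to 17.0 and 7.41 to 37.4) overlapped between the 2 sets. The length score separated the same 2 sets, with 0.0075 to 0.185 in the 5 and -0.235 to -0.0975 in the 13. Time of day goes with the split too, since the 5 hold all 3 libraries of ZT4.

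With the length score as a covariate the Saa3 difference was 1.27 (adjusted p = 0.00396), that of Duoxa2 0.88 (adjusted p = 0.0121) and that of Saa1 -1.07 (adjusted p = 0.00129). At ZT4 alone, where 723 of 11380 rows passed, Saa3 differed by 1.29 ± 0.60 (adjusted p = 0.210), Duoxa2 by 1.26 ± 0.48 (adjusted p = 0.114) and Saa1 by -1.01 ± 0.42 (adjusted p = 0.150). Nox1 differed over all times by 0.18 ± 0.15 (adjusted p = 0.273), by -0.62 on FPKM as deposited (adjusted p = 0.00846), by 0.38 with quantile normalization (adjusted p = 0.0117) and by 1.04 with the length score (adjusted p = 1.59e-06), so no direction is given. Nos2 ranged from 0.0601 to 0.705 in Bmal1 knock out and from 0.0792 to 0.898 in wild type, a difference of 0.11 ± 0.16 (adjusted p = 0.522). The median of all tested rows was itself -0.89 on FPKM as deposited and -0.02 with quantile normalization.

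**Figure D2:**
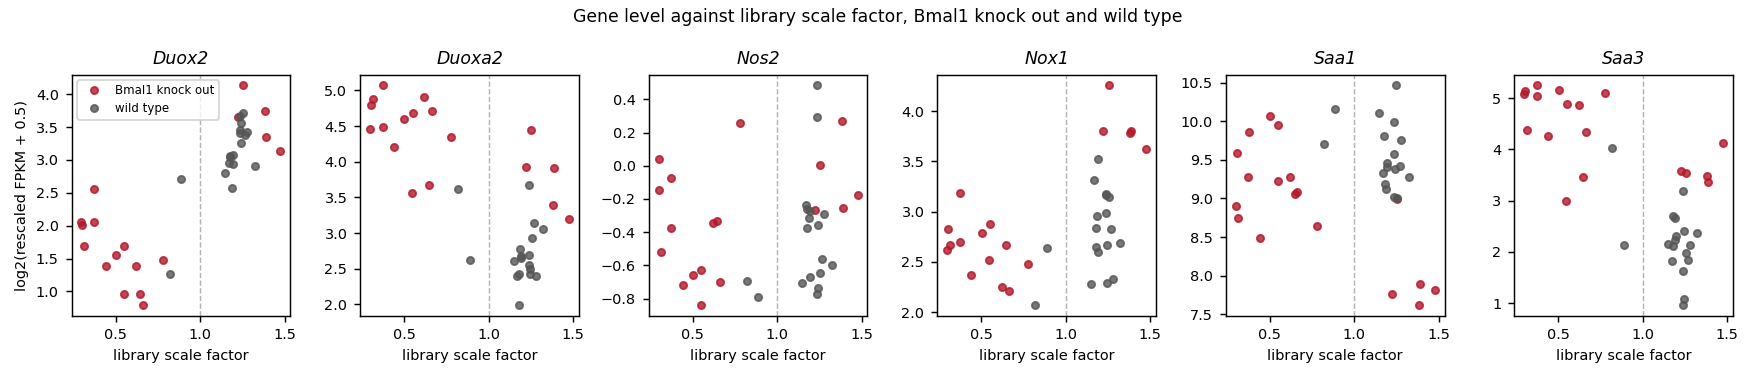
Level of 6 genes, log2(rescaled FPKM + 0.5), against the scale factor of each library in Bmal1 knock out and wild type (18 libraries each; dashed line, a factor of 1). The 5 knock out libraries right of the line hold the high Duox2 (8.27 to 17.0 rescaled FPKM) and Nox1 (11.8 to 18.6) values of that genotype and low Saa1 (197 to 511).

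A rhythm was a 24 h cosine through the 6 times, with the amplitude as the log2 distance from mean to peak. A rhythm difference is the amplitude of the difference between the cosines of the compared groups. It joins differences in amplitude and in peak time and is never negative. In MR knock out none of the 6 genes passed by limma, where 21.7% of rows did, and 2 had an unadjusted p under 0.05. In wild type none passed, where 17.7% of rows did, and 0 had an unadjusted p under 0.05. In Bmal1 knock out, where 56.7% of rows passed, Duox2 had an amplitude of 0.85 ± 0.24 with its peak at ZT5.9, Saa1 one of 0.80 ± 0.17 at ZT15.4 and Saa3 one of 0.74 ± 0.25 at ZT13.1. All 3 calls were lost without the libraries of scale factor under 0.6 (adjusted p = 0.0662, 0.494 and 0.742). That cut removes 9 of the 18 Bmal1 knock out libraries, among them all of ZT12 and ZT16. The Saa1 and Saa3 peaks lie near those times, so the loss cannot decide on these rhythms. The fit also used a condition mean with cosine and sine terms in place of time means.

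The Duox2 rhythm differed between Bmal1 knock out and wild type by 1.14 ± 0.35 (adjusted p = 0.0330), where 31.2% of rows passed. That call was lost when any 1 of 9 libraries was left out, with 0.91 (adjusted p = 0.104) without Bmal1 knock out ZT8 replicate 2. In Bmal1 knock out all libraries of ZT4, near the Duox2 peak, belonged to the set of high scale factor. Time and library set cannot be told apart there. No gene of the 6 passed for a rhythm difference between MR knock out and wild type by limma, where 0.835% of rows did, and 0 had an unadjusted p under 0.05.

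**Figure D3:**
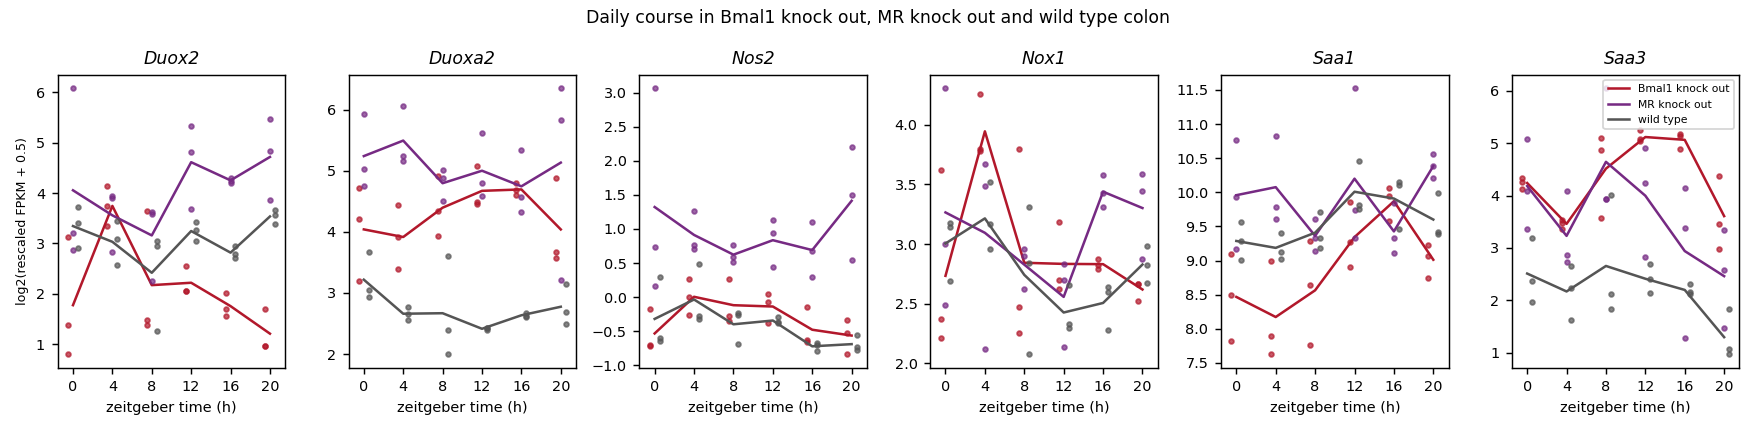
Daily course of 6 genes in Bmal1 knock out, MR knock out and wild type colon, log2(rescaled FPKM + 0.5) against zeitgeber time in hours; points are libraries (3 per time) and lines join the means. MR knock out lies above wild type at 6 of 6 times for Duox2, Duoxa2, Nos2 and Saa3, and Duox2 of Bmal1 knock out lies above wild type at ZT4 alone.

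Of 11 other NADPH oxidase genes 5 were tested, and 4 rose in each knock out with none lower, where 66.0% of all tested rows passed in MR knock out (24.7% upwards) and 80.3% in Bmal1 knock out (31.1% upwards). Among those in MR knock out were the small GTPase Rac1 (0.19 ± 0.05), the NOX1 organizer Noxo1 (0.20 ± 0.07) and the membrane subunit Cyba (0.22 ± 0.08). Among those in Bmal1 knock out were the NOX1 activator Noxa1 (0.38 ± 0.06), Noxo1 (0.30 ± 0.07) and Cyba (0.30 ± 0.08). The list median was 0.20 in MR knock out and 0.30 in Bmal1 knock out. The paralogs Duox1 and Duoxa1 were below the level for testing, with no condition median over 0.214 rescaled FPKM.

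Of 8 nitric oxide and arginine genes 4 were tested, where 66.0% of all tested rows passed in MR knock out and 80.3% in Bmal1 knock out. Gch1, which starts synthesis of the NOS cofactor tetrahydrobiopterin, rose in MR knock out by 0.57 ± 0.08, with 8.44 ± 2.32 rescaled FPKM in MR knock out and 5.37 ± 0.75 in wild type (SD, n = 18 each). The arginase Arg2 fell by 0.93 ± 0.16 (log2 difference -0.93) and Ass1, of arginine synthesis, by 0.65 ± 0.13 (log2 difference -0.65). Asl (0.22 ± 0.07) and Gch1 (0.20 ± 0.08) rose in Bmal1 knock out, and none fell. The list median was -0.30 in MR knock out and 0.11 in Bmal1 knock out.

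All 15 antioxidant genes were tested, and they went both ways; of all tested rows 66.0% passed in MR knock out and 80.3% in Bmal1 knock out. Of the 15, 7 rose and 5 fell in MR knock out, with the sulfiredoxin Srxn1 (0.48 ± 0.05) and the epithelial glutathione peroxidase Gpx2 (0.91 ± 0.15) higher, and the peroxiredoxin Prdx6 (-0.98 ± 0.13) and catalase, Cat (-0.51 ± 0.09), lower. In Bmal1 knock out 7 rose and 6 fell. Gpx2 averaged 1279 ± 419.5 rescaled FPKM in Bmal1 knock out and 371 ± 169 in wild type (SD, n = 18 each; 1.79 ± 0.15), Gpx4 also rose (0.92 ± 0.11), and Prdx6 (-1.15 ± 0.13) and Cat (-0.76 ± 0.09) fell. The list median was 0.08 in MR knock out and -0.06 in Bmal1 knock out.

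All 11 transcription factor and feedback genes were tested, in comparisons where 66.0% (MR knock out) and 80.3% (Bmal1 knock out) of all tested rows passed. In MR knock out 6 rose and 1 fell: the STAT feedback inhibitor Socs1 (1.36 ± 0.16), the interferon-activated factor Irf1 (0.56 ± 0.08) and the NF-kB subunit Relb (0.19 ± 0.06) were among the higher ones. In Bmal1 knock out 5 rose and 3 fell, with Socs1 (1.33 ± 0.16) higher and Stat3 (-0.50 ± 0.07) and the NF-kB inhibitor Tnfaip3 (-0.75 ± 0.10) lower.

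The lists below are set against 66.0% of all tested rows that passed in MR knock out (24.7% upwards, 41.3% downwards). In Bmal1 knock out 80.3% passed (31.1% upwards, 49.2% downwards). Of 16 cytokine and receptor genes 7 were tested. In MR knock out the IL-17 receptor chain Il17rc (0.29 ± 0.07) and the IL-22 receptor Il22ra1 (0.18 ± 0.08) rose and the cytokine Il18 fell (-0.62 ± 0.16). Il17rc also rose in Bmal1 knock out (0.29 ± 0.07), and 4 fell, among them Il17ra (-0.65 ± 0.07), Il10rb (-0.50 ± 0.07) and Il22ra1 (-0.43 ± 0.08). Il22 itself had a median of 0 in every condition. Of 12 acute-phase genes 2 were tested, and none passed in MR knock out. The 4 neutrophil chemoattractants were all below the level for testing. Among the 7 epithelial markers 3 rose and 1 fell in MR knock out, with the surface keratin Krt20 at 640.0 ± 169 rescaled FPKM in MR knock out and 316 ± 60.6 in wild type (SD, n = 18 each). In Bmal1 knock out 3 rose and 3 fell, Epcam by 0.58 ± 0.05 (log2 difference -0.58). Of 5 goblet cell markers, 2 rose and 1 fell in MR knock out (Clca1 by 1.72 ± 0.22 up, Fcgbp by 0.52 ± 0.17 up, Muc2 at -0.26 ± 0.11), and 3 rose and 1 fell in Bmal1 knock out (Clca1 by 1.48 ± 0.22 up, Muc2 at -0.46 ± 0.11). The part of these markers was not tested.

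In high salt day fed colon 4 of the 6 tested genes, Duox2, Duoxa2, Nox1 and Nos2, rose over high salt night fed colon, and none fell. Of all tested rows 27.6% passed in this comparison, 14.7% upwards and 12.9% downwards. The median log2 difference was 0.96 over the 6 genes and 0.02 over all tested rows.

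Nos2 ranged from 0.717 through a median of 1.57 to 51.1 rescaled FPKM in high salt day fed colon and from 0.184 through 0.438 to 1.75 in high salt night fed colon. The difference was 1.73 ± 0.26 (adjusted p = 1.06e-06), and Nos2 was higher at 6 of 6 times. The day fed group was uneven: ZT0 held 30.6, 12.1 and 7.98, ZT4 replicate 1 held 51.1, ZT16 replicate 3 held 15.6, and the other 13 libraries held 0.717 to 2.89. High salt day fed ZT4 replicate 1, the library with 15.2 of S100a8, also held the highest Duox2 (105.6), Duoxa2 (137.5), Nox1 (32.5) and Lcn2 (3.77) of all 126 libraries.

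Duox2 ranged from 7.20 through 13.4 to 105.6 rescaled FPKM in high salt day fed colon and from 2.15 through 5.97 to 17.7 in high salt night fed colon, a rise of 1.45 ± 0.24 (adjusted p = 6.34e-06) at 5 of 6 times. Duoxa2 ranged from 16.4 through 28.5 to 137.5 in high salt day fed colon and from 6.13 through 13.8 to 32.8 in high salt night fed colon, a rise of 1.15 ± 0.17 (adjusted p = 6.90e-07) at 6 of 6 times. Nox1 ranged from 5.23 through 8.76 to 32.5 in high salt day fed colon and from 2.01 through 5.65 to 16.2 in high salt night fed colon, a rise of 0.78 ± 0.18 (adjusted p = 0.00147) at 5 of 6 times. All 3 genes overlap between the groups. The Nox1 difference was 0.74 (adjusted p = 0.0578) without replicate 3.

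Saa3 ranged from 13.3 through 28.7 to 63.5 rescaled FPKM in high salt day fed colon and from 6.47 through 21.9 to 56.2 in high salt night fed colon. Its difference was 0.44 ± 0.18 (adjusted p = 0.0644), which became 0.67 (adjusted p = 0.0129) without ZT4, an alternative added after seeing the data. Saa1 ranged from 669 through 1703 to 3141 in high salt day fed colon and from 423 through 1850.0 to 4072 in high salt night fed colon, a difference of -0.10 ± 0.17 (adjusted p = 0.694) that was 0.36 (adjusted p = 0.0232) on FPKM as deposited.

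Against low salt day fed colon, 5 of the 6 genes rose in high salt day fed colon and none fell, where 14.8% of all tested rows passed, 7.79% upwards and 7.05% downwards. The differences were 1.62 ± 0.26 for Nos2 (adjusted p = 7.72e-06), 1.02 ± 0.17 for Duoxa2 (adjusted p = 1.25e-05), 0.98 ± 0.24 for Duox2 (adjusted p = 0.00262), 0.66 ± 0.18 for Saa3 (adjusted p = 0.0101) and 0.59 ± 0.18 for Nox1 (adjusted p = 0.0219). Nos2, Duox2, Duoxa2 and Nox1 were higher at 6 of 6 times and Saa3 at 5. Low salt day fed colon held 0.173 through 0.550 to 1.39 of Nos2 and 4.56 through 7.70 to 18.3 of Duox2. Without ZT0, an alternative added after seeing the data, the Duox2 difference was 0.71 (adjusted p = 0.0705) and that of Nox1 0.42 (adjusted p = 0.196). The Nox1 call was also lost without high salt day fed ZT4 replicate 1 (adjusted p = 0.0550) or low salt day fed ZT8 replicate 2 (adjusted p = 0.0543).

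Between low salt day fed and low salt night fed colon none of the 6 genes passed by limma, where 3.33% of rows did (1.04% upwards, 2.29% downwards), and 0 had an unadjusted p under 0.05. The differences ran from -0.30 ± 0.26 for Nos2 to 0.18 ± 0.18 for Nox1. Between high salt night fed and low salt night fed colon none passed by limma, where 35.0% of rows did (15.4% upwards, 19.6% downwards), and 1 had an unadjusted p under 0.05, Duox2 with -0.49 ± 0.24 (adjusted p = 0.0980). Its values were 2.15 through 5.97 to 17.7 in high salt night fed colon and 3.95 through 6.93 to 42.2 in low salt night fed colon.

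The test of the difference itself, day minus night feeding on high salt against the same on low salt, passed for 4 of 6 genes, all upwards, where 19.8% of all tested rows passed, 11.0% upwards and 8.77% downwards. The interaction was 2.02 ± 0.37 for Nos2 (adjusted p = 5.19e-05), 1.48 ± 0.34 for Duox2 (adjusted p = 0.00149), 1.03 ± 0.24 for Duoxa2 (adjusted p = 0.00185) and 0.70 ± 0.26 for Saa3 (adjusted p = 0.0499). Nox1 (0.60 ± 0.26, adjusted p = 0.0892) and Saa1 (0.09 ± 0.24, adjusted p = 0.791) did not pass. The Saa3 call was lost in 50 of 72 fits that left out 1 library. That of Duoxa2 was lost without ZT0 (0.42, adjusted p = 0.246) and without ZT4 (0.54, adjusted p = 0.102), and that of Duox2 without replicate 1 (1.19, adjusted p = 0.0547) and without replicate 3 (1.33, adjusted p = 0.0760).

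**Figure D4:**
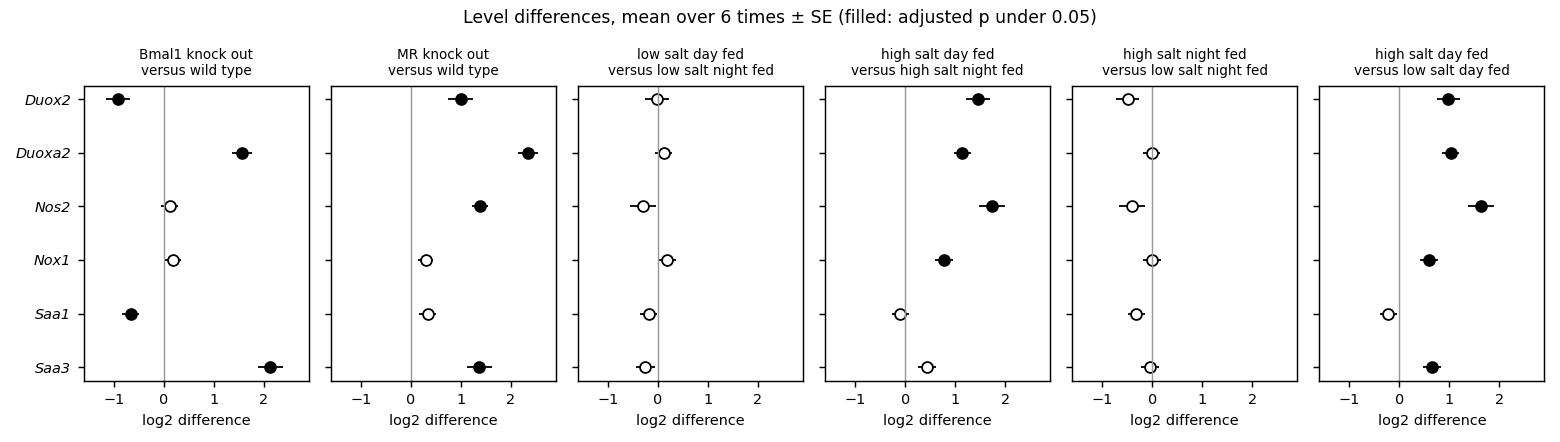
Level differences of the 6 tested genes in each comparison, in log2 units, with bars of 1 SE; filled points have an adjusted p under 0.05. Duoxa2 lies to the right in MR knock out (2.34), in Bmal1 knock out (1.56) and in high salt day fed colon against both high salt night fed (1.15) and low salt day fed (1.02), while Duox2 lies left of 0 in Bmal1 knock out (-0.92, but 0.49 with the length score as a covariate).

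No gene passed for level between day and night feeding on low salt, but 3 of them differed there in their daily rhythm. In low salt day fed colon, where 42.2% of rows were rhythmic, Saa3 alone passed, with 0.77 ± 0.18 and a peak at ZT18.8, and held 22.9 to 55.2 rescaled FPKM at ZT20. In low salt night fed colon 5 of the 6 genes were rhythmic, where 22.6% of rows were: Duox2 with an amplitude of 0.95 ± 0.24 and peak at ZT1.3, Nox1 with 0.74 ± 0.18 at ZT2.0, Nos2 with 1.28 ± 0.26 at ZT2.8, Duoxa2 with 1.38 ± 0.17 at ZT3.1 and Saa3 with 1.06 ± 0.18 at ZT4.9. Duoxa2 held 32.6 to 65.1 rescaled FPKM at ZT0 and ZT4 and 3.88 to 16.6 at the other 4 times, with no overlap. Nos2 held 1.30 to 6.79 at ZT0 and ZT4 and 0.108 to 0.925 at the other 4 times. The share of all tested rows without overlap between these times was not taken.

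Rhythms differed between low salt day fed and low salt night fed colon for Duoxa2 (1.84 ± 0.24, adjusted p = 3.17e-07), Saa3 (1.78 ± 0.26, adjusted p = 4.85e-06) and Nos2 (1.60 ± 0.37, adjusted p = 0.00291), 3 of 6 genes where 38.6% of rows differed. Duoxa2 held 7.46 to 14.4 at ZT0 and ZT4 in low salt day fed colon, below the 32.6 to 65.1 of low salt night fed colon at those times. The share of all tested rows without overlap there was not taken. The 3 calls of a rhythm difference stood when any 1 replicate number was left out.

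In high salt day fed colon 4 of 6 genes were rhythmic, where 31.6% of rows were: Nos2 (1.35 ± 0.26, peak ZT23.6), Duox2 (0.94 ± 0.24, ZT0.67), Duoxa2 (0.75 ± 0.17, ZT0.43) and Saa3 (0.61 ± 0.18, ZT16.7). Without replicate 1, the replicate with the highest library at ZT4, the Duox2 (0.56, adjusted p = 0.407) and Duoxa2 (0.57, adjusted p = 0.143) rhythms did not pass. In high salt night fed colon 5 of 6 were rhythmic, where 57.0% of rows were: Saa3 (1.16 ± 0.18, ZT9.3), Duox2 (1.07 ± 0.24, ZT23.0), Nox1 (1.01 ± 0.18, ZT23.6), Saa1 (0.85 ± 0.17, ZT12.0) and Duoxa2 (0.51 ± 0.17, ZT23.8). The 5 high salt night fed libraries of scale factor under 0.6 all lie at ZT8 and ZT12, and without them Duox2 (adjusted p = 0.254) and Duoxa2 (adjusted p = 0.687) did not pass. No high salt night fed library of ZT8 is left by that cut, so the loss cannot decide on these rhythms.

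The Saa3 rhythm differed between high salt day fed and high salt night fed colon (1.49 ± 0.26, adjusted p = 8.10e-05), the 1 gene of 6 to do so where 32.5% of rows did. At ZT8 Saa3 held 15.7, 17.0 and 20.8 rescaled FPKM in high salt day fed colon and 46.7, 31.3 and 56.2 in high salt night fed colon. At ZT20 it held 30.6, 29.3 and 42.9 in high salt day fed colon and 6.71, 9.73 and 20.8 in high salt night fed colon. On rescaled FPKM the groups did not overlap at either time and lay in opposite order. On FPKM as deposited they overlapped at ZT8, with 17.89, 21.23 and 26.05 in high salt day fed and 21.76, 15.77 and 31.7 in high salt night fed colon. The scale factors of those night fed libraries were 0.4655, 0.5032 and 0.5642. The share of all tested rows without overlap at these times was not taken.

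**Figure D5:**
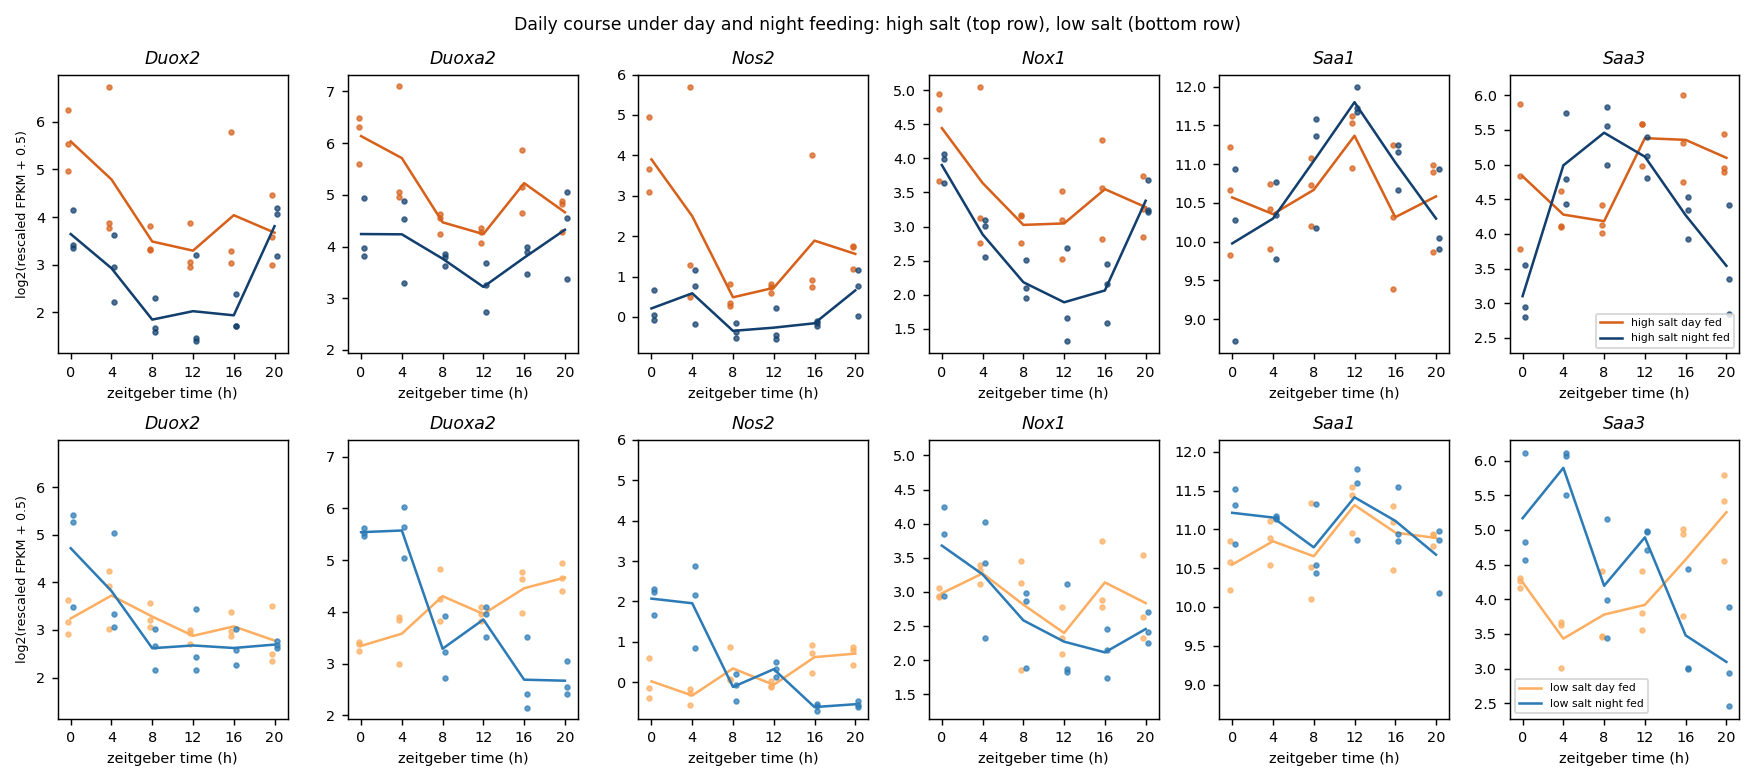
Daily course of 6 genes in the 4 feeding groups, log2(rescaled FPKM + 0.5) against zeitgeber time in hours; points are libraries (3 per time) and lines join the means. Duoxa2 and Nos2 peak near ZT0 to ZT4 in low salt night fed colon (amplitudes 1.38 and 1.28), and Saa3 peaks at ZT18.8 in low salt day fed and ZT9.3 in high salt night fed colon.

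Of the 11 transcription factor and feedback genes, 3 rose in high salt day fed over high salt night fed colon and 4 over low salt day fed colon, with none lower, where 27.6% and 14.8% of all tested rows passed. Irf1 rose by 0.35 ± 0.07 over high salt night fed colon and by 0.30 ± 0.07 over low salt day fed colon. In high salt night fed against low salt night fed colon 4 of the 11 fell and none rose, where 35.0% of all tested rows passed and 19.6% fell, among them Tnfaip3, by 0.42 ± 0.09 (log2 difference -0.42).

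The lists below are set against 27.6% of all tested rows that passed between high salt day fed and high salt night fed colon. Between high salt day fed and low salt day fed colon 14.8% passed, and between high salt night fed and low salt night fed colon 35.0%. Of 5 tested NADPH oxidase genes 1, Noxa1, rose in high salt day fed colon, by 0.14 ± 0.05 over high salt night fed and 0.31 ± 0.05 over low salt day fed colon. It also rose in high salt night fed over low salt night fed colon (0.21 ± 0.05). Of 15 antioxidant genes 4 rose and 3 fell over high salt night fed colon, with Srxn1 (0.29 ± 0.04) and the thioredoxin reductase Txnrd1 (0.32 ± 0.06) higher, and 2 rose and 1 fell over low salt day fed colon, with the quinone reductase Nqo1 (0.57 ± 0.07) and Srxn1 (0.23 ± 0.04) higher. Gch1 rose by 0.23 ± 0.07 over low salt day fed colon, and in high salt night fed over low salt night fed colon by 0.20 ± 0.07. Arg2 rose (0.42 ± 0.13) and Asl fell (-0.16 ± 0.06) in high salt day fed over high salt night fed colon. Arg2 was also lower in high salt night fed than in low salt night fed colon (-0.48 ± 0.13). It did not pass between high salt day fed and low salt day fed colon. In high salt day fed colon 3 of 7 tested cytokine and receptor genes rose and 1 fell, in both of its comparisons. Il22ra1 was higher (0.34 ± 0.08) and Il18 lower (-0.48 ± 0.09) than in high salt night fed colon. Tnf was higher (0.57 ± 0.17) and Il18 lower (-0.35 ± 0.09) than in low salt day fed colon. In high salt night fed against low salt night fed colon 4 of the 7 fell, among them Il22ra1 (-0.34 ± 0.08), and none rose. The lipopolysaccharide-binding protein gene Lbp rose by 0.56 ± 0.18 over high salt night fed colon. Krt20 rose by 0.40 ± 0.07 and 0.44 ± 0.07, and of 5 goblet cell markers 2 and 3 fell with none higher, Clca1 by 0.51 ± 0.14 and 1.39 ± 0.14 (log2 differences -0.51 and -1.39), over high salt night fed and low salt day fed colon.

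Lcn2 was listed at 0 in 37 of 126 libraries and exceeded 1 rescaled FPKM in 5. Its highest value was 3.77 in high salt day fed ZT4 replicate 1, followed by 1.64 in low salt night fed ZT0 replicate 1, 1.48 in MR knock out ZT0 replicate 3, 1.35 in high salt day fed ZT0 replicate 1 and 1.34 in low salt night fed ZT4 replicate 3. With no filter on low values (20481 rows) the MR knock out difference from wild type was 0.25 ± 0.08 (adjusted p = 0.00684), with 4 of 18 MR knock out libraries and 11 of 18 wild type libraries listed at 0. The rhythm in low salt night fed colon had an amplitude of 0.66 ± 0.16 and a peak at ZT2.1 (adjusted p = 0.00899). At such levels a log2 difference understates the change.

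Over the 42 means of condition and time, the log2 levels of Duoxa2 and Nos2 had a Pearson r of 0.82, Duox2 and Nos2 of 0.78, Duox2 and Nox1 of 0.74, Duox2 and Duoxa2 of 0.54 and Saa1 and Saa3 of 0.42. Among 10730 genes compared, those most like Duoxa2 were Trim40 (0.92), Gch1 (0.85) and Ripk3 (0.85), those most like Duox2 were Dhrs9 (0.89), Aim1 (0.87) and Cap1 (0.86), and those most like Nos2 were Il4ra (0.88), Steap4 (0.86) and Clca4b (0.85). Nox1 was most like Dbf4, Cstf2 and Nfkbiz (0.81 each), of which Cstf2 overlaps it on the opposite strand. Saa1 was most like its copy Saa2 (0.96), then Cyp2d12 (0.87) and Cyp2d10 (0.85), and Saa3 was most like Myl7 (0.87), Tmem54 (0.86) and Pdzd3 (0.82). These are descriptions over means that share libraries, scaling and condition.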

How the data were processed

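Colon poly(A) RNA from 126 libraries (7 conditions, 6 times, 3 libraries each) was sequenced from stranded TruSeq libraries, per the labels' protocols. The authors deposited FPKM per gene, and TopHat2 2.1.1, Cufflinks 2.2.1 and mm10 are named in the submitters' processing notes. The depth is unknown, so no counting interval is given. Each condition is a table of its own, so table and condition cannot be told apart.

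FPKM was divided by a median-of-ratios factor per library over 6966 rows with FPKM of at least 1 in every library. Rows with a mean of 1 or more rescaled FPKM in a condition were tested on log2(value + 0.5), a scale that understates changes of low genes, with limma 3.58.1 in R 4.3.3 (trend, robust), 1 fit for 54 genotype and 1 for 72 feeding libraries, with Benjamini-Hochberg adjustment over all 11380 rows at 0.05. A level is the mean over 6 times, and a rhythm an F test of 24 h cosine and sine terms. The fits were tested on simulated data. Named genes were all 7 members, per pathway or marker list up to 4 (genotype) or 2 (feeding) genes of smallest adjusted p, and the 3 most correlated genes per member; some of the genes this rule names are not reported here. The members and lists were chosen with earlier results of these data known. Labels do not say that libraries came from separate animals, so p-values measure the spread between libraries. Alternatives were the pseudocount, filter, scaling, a replicate block, a length score, and left-out libraries and times.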

Additional observations from a re-analysis of the deposited data

Results flagged for a closer look

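Differences between groups in the same contrast, each by a test of the difference itself, were found for 9 results. The effect of day against night feeding differed between high salt and low salt for Nos2 (2.02), Duox2 (1.48), Duoxa2 (1.03) and Saa3 (0.70), each larger on high salt. The daily rhythm differed between low salt day fed and low salt night fed colon for Duoxa2 (1.84), Saa3 (1.78) and Nos2 (1.60), between high salt day fed and high salt night fed colon for Saa3 (1.49), and between Bmal1 knock out and wild type for Duox2 (1.14), in log2 units. These rhythm values join differences in amplitude and in peak time, so they are not differences of amplitudes. The Duox2 rhythm difference was lost with no filter, with the length score and when some single libraries were left out. The interaction calls of Saa3, Duoxa2 and Duox2 were also lost under some alternatives.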

How the results depend on the processing

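Pseudocounts of 0.1 and 1, quantile normalization, a replicate block and single left-out libraries changed few of the tests of single genes, and the Duoxa2, Duox2, Nos2 and Saa3 rises in MR knock out were called under every alternative run. In the sentences below, a count is of all 11380 tested rows unless it is said to be of genes, which are the 6 tested; the cause of the changes was not tested.

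With no filter on low values, Lcn2, which the filter had removed, was rhythmic in MR knock out (0.34 ± 0.08, adjusted p = 0.00812 by the F test). Its highest MR knock out value, 1.48 rescaled FPKM, came from ZT0 replicate 3. None of the tested genes was rhythmic in MR knock out in this setting, and 0 differed in rhythm between Bmal1 knock out and wild type. The main fit shares of all tested rows were 21.7% and 31.2%. On FPKM as deposited, rhythm calls were 10845 for Bmal1 knock out, 941 for MR knock out, 375 for wild type, 2696 (2 genes) in low salt day fed, 1036 (3 genes) in low salt night fed and 10383 in high salt night fed colon. Rhythm differences were 9912 (3 genes) for Bmal1 knock out, 7 for MR knock out, 2111 on low salt and 9871 (2 genes) on high salt. Level calls were 79 for low salt day against night, 9986 for high salt day against night, 9990 (4 genes) for high against low salt night fed, 1049 for high against low salt day fed and 8403 for the interaction. The sign turned for Nox1 in Bmal1 knock out (-0.62) and Saa1 in high salt day against night feeding (0.36). This scaling moved the median of all tested rows to -0.89 for Bmal1 knock out, -0.24 for MR knock out, 0.41 for high salt day against night and -0.45 for high against low salt night fed. With quantile normalization 1 gene was called for high against low salt night fed, where 35.0% of all tested rows passed in the main fit.

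Without the libraries of scale factor under 0.6, rhythm calls were 753 (0 genes) in Bmal1 knock out and 866 (3 genes) in high salt night fed colon. This setting leaves no library at ZT12 or ZT16 in Bmal1 knock out and none at ZT8 in high salt night fed colon. It also fits a condition mean with cosine and sine terms in place of time means. Rhythm differences were 279 (0 genes) for Bmal1 knock out, 51 for MR knock out and 1550 on high salt. Level calls were 806 for high salt day against night, 1546 for high against low salt night fed and 508 (2 genes) for the interaction.

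With a length score as a covariate, level calls were 4090 for Bmal1 knock out, 4297 for MR knock out, 1341 for low salt day against night and 3412 for high against low salt day fed, with 2 genes for high against low salt night fed. Rhythm calls were 4248 (1 gene) in wild type, 2870 (2 genes) in low salt day fed, 4191 in low salt night fed and 2270 (2 genes) in high salt day fed colon. Rhythm differences were 369 for MR knock out, with 0 genes for Bmal1 knock out, 5 genes on low salt and 2 genes on high salt. In the main fit rhythms differed for 31.2% of all tested rows for Bmal1 knock out, 38.6% on low salt and 32.5% on high salt. The main fit share for the level of high against low salt night fed was 35.0%. For these comparisons the counts of all rows with the length score are not given here. The sign turned for Duox2 in Bmal1 knock out (0.49) and Nox1 for high against low salt night fed (0.32).

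Of the alternatives added after seeing the data, ZT4 alone gave 723 calls and 0 genes for Bmal1 knock out, with Duox2 at 0.71. Without ZT4 there were 1662 calls (1 gene) for low salt day against night and 2 genes for the interaction. Without ZT0 there were 3 genes for high against low salt day fed and 2 for the interaction. In the main fit 14.8% of all tested rows passed for high against low salt day fed and 19.8% for the interaction. The counts of all rows without ZT0, and for the interaction without ZT4, are not given here.

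Leaving out each replicate number in turn gave 4979 to 7565 level calls for MR knock out, 47 to 53 for low salt day against night, 831 to 3449 for high salt day against night, 1661 to 3375 for high against low salt night fed, 579 to 1076 (3 to 4 genes) for high against low salt day fed and 460 to 3442 (2 to 3 genes) for the interaction. Rhythm calls were 2316 to 6379 (0 to 3 genes) for Bmal1 knock out, 337 to 1475 (0 to 1 gene) for MR knock out, 702 to 1537 for wild type, 869 to 2270 (0 to 1 gene) in low salt day fed, 988 to 1165 (3 to 5 genes) in low salt night fed, 371 to 4000 (1 to 5 genes) in high salt day fed and 3863 to 5902 in high salt night fed colon. Rhythm differences were 376 to 2775 (0 to 2 genes) for Bmal1 knock out, 0 to 134 for MR knock out, 1503 to 2555 on low salt and 2136 to 2411 (1 to 3 genes) on high salt.

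Leaving out single libraries gave 228 to 606 level calls for low salt day against night, 1562 to 3448 for the interaction and 0 to 1 gene for high against low salt night fed. Rhythm calls were 1626 to 2989 (0 to 1 gene) in MR knock out, 3000 to 5042 (1 to 2 genes) in low salt day fed and 1825 to 5229 in high salt day fed colon. Rhythm differences were 65 to 353 for MR knock out, with 0 to 2 genes for Bmal1 knock out and 1 to 2 genes on high salt.

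For the other summaries the highest counts with 1 library left out were 7985 for the level in MR knock out, 4026 for high salt day against night, 4876 for high against low salt night fed and 2054 for high against low salt day fed. For rhythms they were 7047 in Bmal1 knock out, 2247 in wild type, 3163 in low salt night fed and 7269 in high salt night fed colon, and for rhythm differences 4674 for Bmal1 knock out, 5387 on low salt and 4375 on high salt.

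Same-numbered libraries did not pair: 3 to 8 of 18 pairs per comparison had a correlation of deviations over 0.1. A fit with the replicate number as a block gave 2186 interaction calls and 3 genes, with Saa3 at 0.70 (adjusted p = 0.0525), and changed no other call of the 6 genes. The depth is unknown, and the low levels of Nos2 and Lcn2 limit what their log2 differences show.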
